A study of Yarrowia lipolytica with 3 samples.

Results

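The genes described here encode the ways in which electrons enter and leave the ubiquinone pool of the respiratory chain in the oil-accumulating yeast Yarrowia lipolytica. They are the alternative oxidase AOX1 (YALI0D09933g), the alternative NADH dehydrogenase NDH2 (YALI0F25135g) and 7 genes listed as nuclear subunits of complex I: NUAM (YALI0D05467g), NUBM (YALI0D00737g), NUHM (YALI0D24585g), NUCM (YALI0F17248g), NUGM (YALI0F02123g), NUIM (YALI0F00924g) and NUKM (YALI0F06050g). They were chosen by identifier as a pathway group, at a time when earlier results of these data were known, and all 9 of them were found among the 6448 gene identifiers in the files. Expression was measured by RNA-seq in 3 libraries, 1 from the wild-type strain PO1a, 1 from an mhy1Δ strain of that background, which lacks the zinc-finger transcription factor MHY1, and 1 from a strain of that background that overexpresses MHY1. All 3 cultures were grown at 30 °C in YNDC7 liquid medium to which uracil was added, to an OD600 of 0.8. The promoter and the copy number of the overexpression construct, and the number of clones behind each strain, are not given in the labels. The comparisons ask how the transcripts of these genes differ when MHY1 is absent or in excess.

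Complex I takes electrons from NADH in the mitochondrial matrix, passes them to ubiquinone and pumps protons across the inner membrane. NDH2 is a single-polypeptide enzyme on the outer face of that membrane that also reduces ubiquinone with NADH but pumps no protons, and AOX1 passes electrons from ubiquinol straight to oxygen, bypassing complexes III and IV and their proton pumping. Y. lipolytica has both kinds of NADH dehydrogenase, unlike Saccharomyces cerevisiae, which has no complex I, and it has served as a yeast model for the enzyme.

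The level of the MHY1 transcript (YALI0B21582g) went with the genotypes given, at 467 RPKM for the wild-type library, at 0 in the deletion library, where 3 reads would be 0.0587 RPKM, and at 1159 RPKM in the overexpression library. RPKM values are corrected for the length of the gene and the size of the library, so that levels can be compared between genes. Read totals recovered from the values were 47622181 for wild type, 59527000 for the deletion and 75306802 for the overexpression library. With 1 library per strain there is no replicate check of any difference, and no test was run. In bulk RNA a different mix of cell forms and a different amount of RNA per cell cannot be told apart. All intervals are exact, at 95%, and cover counting error only. The identifiers are all of the nuclear form, so complex I subunits encoded in mitochondrial DNA were not analysed here.

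The names were set beside the gene lengths recovered from the RPKM steps, since neither the files nor the reference table pair these identifiers with names. For NDH2 (1749 bp), NUAM (2187 bp), NUCM (1401 bp) and NUGM (846 bp) the length equalled that of the Yarrowia protein as recalled from general knowledge. NUIM equalled it at 5 times the recovered length (690 bp), so its true read numbers may be 5 times those given here. AOX1 (1050 bp) was 4 codons shorter and NUKM (651 bp) 6 codons longer than recalled. The gene listed as NUHM did not have the length of that subunit: at 1128 bp it was 132 codons longer. The gene listed as NUBM was at 732 bp, which is the recalled length of NUHM, and only its doubled length, 1464 bp, came within 1 codon of NUBM. The lengths therefore go against the name NUHM for YALI0D24585g and leave that of YALI0D00737g unsettled, and both are called by their identifiers below. Ratios between libraries do not depend on a gene's length or name.

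AOX1, the terminal oxidase of the group, differed most between the libraries. Its wild-type level was 197 RPKM, against 505 RPKM without MHY1 and 101 RPKM with extra MHY1, from 9865, 31568 and 7965 reads. The deletion library was the high one and the overexpression library the low one, and the counting intervals of the 3 levels did not overlap. AOX1 was 2.56-fold higher in the deletion than in wild type (2.50 to 2.62), with a log2 ratio of 1.35. In the overexpression library it was 1.96-fold lower than in wild type (1.90 to 2.02), just short of 2-fold, with a log2 ratio of −0.96. Between the engineered strains it was 5.01-fold lower with extra MHY1 than without MHY1 (4.89 to 5.14), with a log2 ratio of −2.31. This ratio uses no wild-type library, but its value is fixed by the 2 before it. Log2 ratios here and below were formed after adding 1 RPKM to each value, while folds are plain RPKM ratios.

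AOX1 also held a different place among all genes in each library. Ranked from the highest level down, it was gene 800 of 6448 in wild type, gene 365 in the deletion library and gene 1533 in the overexpression library. NDH2 and the 7 listed complex I genes stayed between place 289 and place 497 in every library, so that 92.3% to 95.5% of all genes lay at or below each of them.

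NDH2, the NADH dehydrogenase that does not pump protons, had 465 RPKM in the wild-type library, 611 RPKM without MHY1 and 432 RPKM with extra MHY1, from 38712, 63597 and 56879 reads. It was highest without MHY1, while the wild-type and overexpression levels lay close together. Its level was 1.31-fold higher in the deletion than in wild type (1.30 to 1.33), a log2 ratio of 0.39. It was 1.08-fold lower in the overexpression library than in wild type (1.06 to 1.09), a log2 ratio of −0.11, and 1.41-fold lower there than in the deletion (1.40 to 1.43), a log2 ratio of −0.50.

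**Figure D1:**
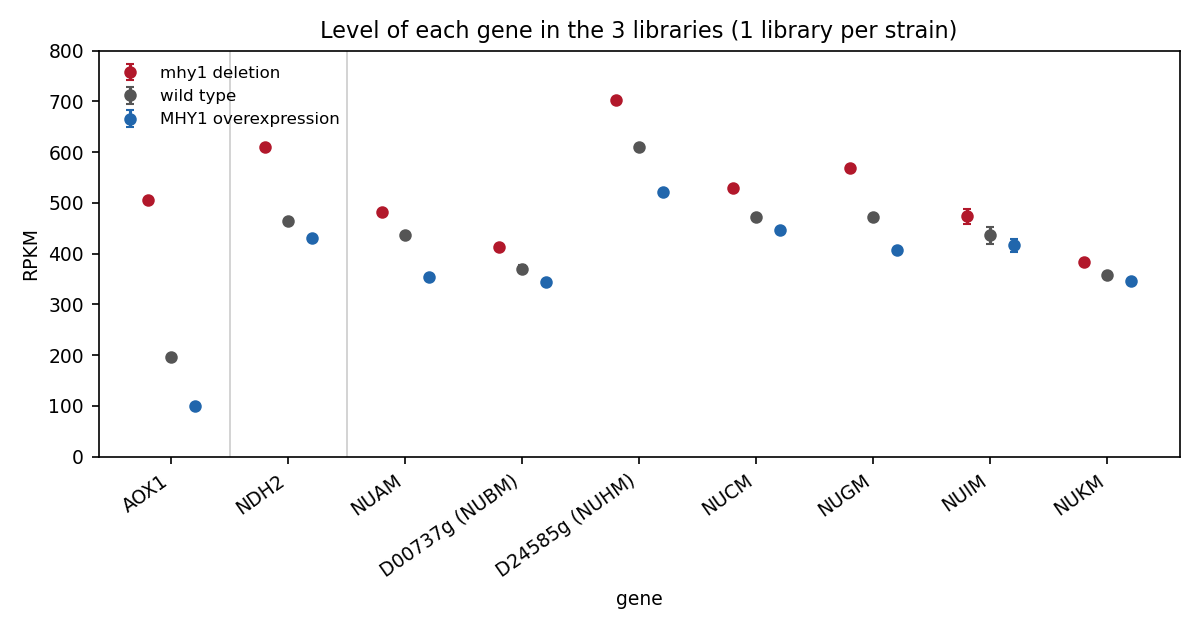
Level of each of the 9 genes in RPKM (vertical axis, linear, from 0) in the deletion (red), wild-type (grey) and overexpression (blue) library; points are single libraries and bars are 95% Poisson counting intervals, mostly smaller than the points. D00737g and D24585g are YALI0D00737g and YALI0D24585g with their listed names in brackets. AOX1 spans 101 to 505 RPKM, while the other genes stay between 344 and 702 RPKM.

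The part of complex I that binds NADH and carries the first electron carriers was represented by NUAM, a large iron-sulfur subunit, and by the pair listed as NUBM, the subunit known to bind NADH and flavin, and NUHM, an iron-sulfur subunit beside it. NUAM had 437 RPKM in the wild-type library, 481 RPKM without MHY1 and 355 RPKM with extra MHY1. This was 1.10-fold higher without MHY1 (1.09 to 1.11) and 1.23-fold lower with extra MHY1 (1.22 to 1.25), the largest overexpression difference among the 7. YALI0D00737g had levels of 371, 413 and 344 RPKM in the wild-type, deletion and overexpression libraries. YALI0D24585g, the most abundant of the listed complex I genes in every library, was at 610, 702 and 521 RPKM in the same order.

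The part that reduces ubiquinone was represented by NUCM and NUKM, which form the ubiquinone pocket, by NUIM, an iron-sulfur subunit, and by NUGM, a subunit without cofactor. NUCM had 472 RPKM in the wild-type library, 530 RPKM without MHY1 and 448 RPKM with extra MHY1. NUGM was at 472, 568 and 408 RPKM in that order, and at 1.20-fold (1.18 to 1.23) it had the largest deletion difference of the 7. NUKM was at 358, 384 and 346 RPKM and had the smallest differences, 1.07-fold higher in the deletion (1.05 to 1.10) and 1.03-fold lower in the overexpression library (1.01 to 1.06). NUIM was at 436, 474 and 417 RPKM, from 2865, 3892 and 4329 reads as recovered. Its interval for overexpression against wild type, 1.00-fold to 1.10-fold lower, included no difference at the recovered read numbers and the deposited scaling, the only such interval among the 27 gene ratios. Its log2 ratio in that comparison was −0.07 as deposited, −0.22 after centring and −0.18 with upper quartiles as the scale.

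The comparisons of the deletion and of the overexpression strain with wild type share the wild-type library, so their values are given side by side and are not independent of each other. Read totals were lowest in wild type and highest in overexpression.

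The 7 listed complex I genes kept similar levels within a library. The highest was 1.71 times the lowest in wild type, 1.83 times in the deletion and 1.51 times in the overexpression library, with coefficients of variation of 18.5%, 21.0% and 16.0% over the 7 genes. Without YALI0D00737g and YALI0D24585g the coefficients were 10.7%, 14.2% and 10.9%. In wild type, NUGM, NUCM and NDH2 followed each other with overlapping counting intervals, as did NUAM and NUIM, and YALI0D00737g and NUKM. In the deletion library only NUAM and NUIM, at neighbouring places, overlapped. In the overexpression library NDH2, NUIM and NUGM overlapped from one place to the next, and NUKM and YALI0D00737g did. The intervals of NUIM and YALI0D00737g rest on recovered reads that may be a fraction of the true ones. With more reads they would be narrower, and some of these overlaps could be absent.

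Set against the complex I median of the same library (437, 481 and 408 RPKM for the wild-type, deletion and overexpression libraries), AOX1 was at 0.451 times that level in wild type, 1.05 times in the deletion and 0.247 times in the overexpression library. In wild type and overexpression all 7 listed complex I genes lay above AOX1, and in the deletion 3 of the 7 did. NDH2 was at 1.06, 1.27 and 1.06 times the median in the same order. NDH2 exceeded AOX1 2.36-fold in wild type, 1.21-fold in the deletion and 4.29-fold in the overexpression library. These within-library ratios do not depend on how the libraries are scaled to each other.

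**Figure D2:**
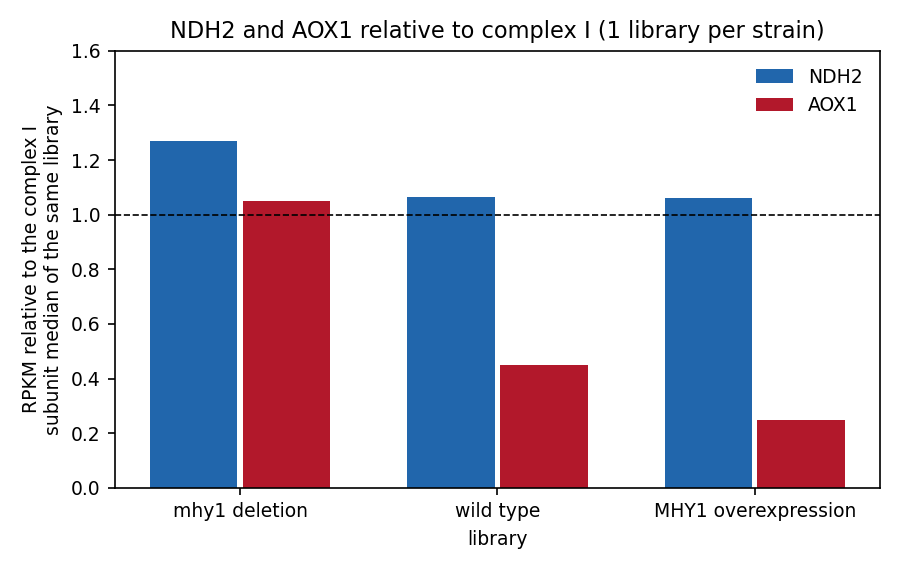
RPKM of NDH2 (blue) and AOX1 (red) divided by the median RPKM of the 7 listed complex I genes in the same library (vertical axis, linear, from 0; dashed line at 1), for the deletion, wild-type and overexpression library, 1 library each and no error bars. AOX1 goes from 1.05 in the deletion to 0.451 in wild type and 0.247 in overexpression, while NDH2 stays between 1.06 and 1.27.

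In the deletion against wild type, 1 of the 9 genes, AOX1, was at least 2-fold higher, where 1.66% of the 6035 genes at 1 RPKM or more in some library were. None of the 9 was at least 2-fold lower, against 5.83% of all genes. The AOX1 log2 ratio was reached or exceeded by 0.878% of all genes and that of NDH2 by 9.16%. All 7 listed complex I genes had log2 ratios above 0, as did 46.2% of all genes. That share was 52.9% under median of ratios scaling and 53.6% over genes that reached 100 RPKM. The 7 ran from 0.10 for NUKM to 0.27 for NUGM with a median of 0.15. The median over all genes was −0.03 (0.03 over the 1730 genes that reached 100 RPKM). With YALI0D00737g and YALI0D24585g left out, the complex I median was 0.14.

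In the overexpression library against wild type, 0 of the 9 genes were at least 2-fold higher, against 5.98% of all genes, and 0 were at least 2-fold lower, against 2.47%. Of all genes called in this comparison 70.8% were higher, and 57.2% after centring the ratios on their median. AOX1 was short of the line as deposited and past it under the other scalings: its log2 ratio was −1.12 when the libraries were scaled by the median of ratios, −1.07 with upper quartiles and −1.12 after centring, so that 1 of 9 was then called lower. As deposited, 2.58% of all genes had a log2 ratio below that of AOX1. The complex I log2 ratios were below 0 for 7 of 7, against 33.3% of all genes (49.4% under median of ratios scaling). As deposited, that share was 48.7% over genes that reached 100 RPKM. The complex I log2 ratios ran from −0.30 for NUAM to −0.05 for NUKM.

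The median of the 7 in this comparison was −0.11, and that over all genes was 0.16. Median of ratios scaling brought the all-gene median to 0.00. Relative to all genes the complex I median was then −0.27 under that scaling and −0.26 after centring. As deposited, the median was 0.13 over genes that reached 10 RPKM and 0.01 over genes that reached 100 RPKM. The listed complex I genes lie in the latter range, so the all-gene value of 0.16 does not describe genes at their level. Without YALI0D00737g and YALI0D24585g the complex I median was −0.07. The listed NADH-side genes ran from −0.30 to −0.11 and the ubiquinone-side genes from −0.21 to −0.05, ranges that overlap.

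**Figure D3:**
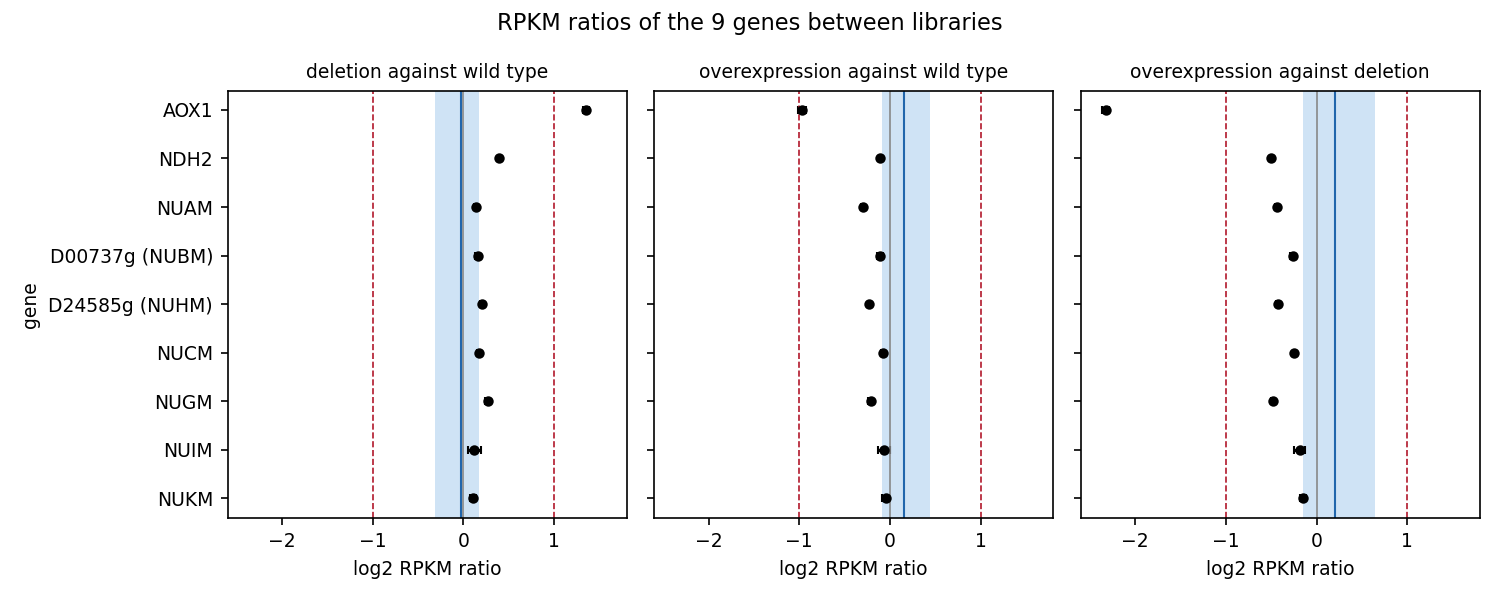
Log2 RPKM ratio (horizontal axis, no pseudocount) of each of the 9 genes in the 3 comparisons; points are single pairs of libraries with 95% counting intervals. The blue line and band give the median and the middle 50% of the 6035 genes compared, on the scale with 1 RPKM added, the grey line marks no difference and the dashed lines 2-fold. AOX1 lies apart from the other genes in each panel. The complex I genes run from 0.10 to 0.27, from −0.30 to −0.05 and from −0.48 to −0.15 in the 3 panels. In the last panel NUKM lies at the lower edge of the band (−0.15) and the points of the other listed complex I genes lie below it. Over genes that reached 100 RPKM that edge is −0.35 (not drawn). Of the listed complex I genes, only NUGM, NUAM and YALI0D24585g lie below it.

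In the overexpression library against the deletion, AOX1 was the 1 gene of 9 that was at least 2-fold different. It was lower, as were 4.74% of all genes, and none of the 9 was at least 2-fold higher, as 15% of all genes were. Among the 1730 genes that reached 100 RPKM, 157 were at least 2-fold lower and 206 at least 2-fold higher. Of all genes called here 76.0% were higher, and 63.9% after centring. The complex I log2 ratios ran from −0.48 for NUGM to −0.15 for NUKM with a median of −0.26, beside 0.20 over all genes and 0.00 over genes that reached 100 RPKM. After centring the complex I median was −0.46, and it was −0.48 with the median of ratios and −0.43 with upper quartiles as the scale. All 7 were below 0, as were 35.4% of all genes (50.2% with the median of ratios as the scale, and 49.9% of genes that reached 100 RPKM). The share of genes with a lower log2 ratio was 10.7% for NDH2, between 11.2% and 24.9% for the 7 complex I genes, and 1.21% for AOX1.

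**Figure D4:**
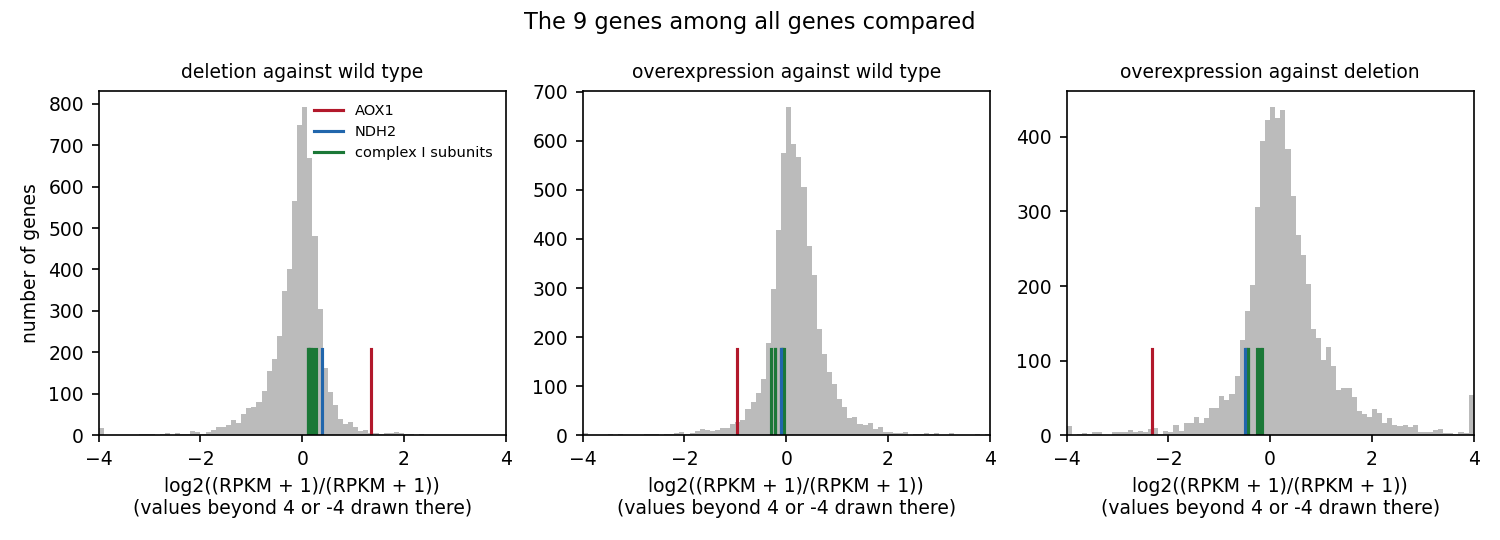
Number of genes (vertical axis) by log2 ratio with 1 RPKM added (horizontal axis, values beyond 4 or −4 drawn there) for the 6035 genes compared in each comparison; coloured lines mark AOX1 (red), NDH2 (blue) and the 7 listed complex I genes (green), and their height has no meaning. AOX1 lies nearer the tail than the other members in every panel, with 0.878% of genes as high in the deletion against wild type.

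The distance between AOX1 and the other genes was larger than the spread among the complex I genes in each comparison. Its log2 ratio exceeded the complex I median by 1.20 in the deletion against wild type and was below it in overexpression against wild type (a difference of −0.86), while between the engineered strains the difference was −2.05. NDH2 lay 0.24 above the complex I median in the first of these comparisons, 0.00 from it in the second and 0.24 below it in the third (−0.24).

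The genes most like AOX1 were found by the distance between pairs of log2 ratios to wild type, over the 3 libraries and the 5142 genes that reached 10 RPKM. The nearest was YALI0F04169g, with 32.8, 88.4 and 15.5 RPKM for wild type, deletion and overexpression, at a distance of 0.09. The next was YALI0B18194g, at 75.4, 179 and 35.7 RPKM and a distance of 0.15. By the way they were chosen, both were highest in the deletion library and lowest in overexpression. Their levels lay below that of AOX1. AOX1 had 6 genes within a distance of 0.25, NDH2 had 410 and the complex I median had 1082. The last count includes the 7 listed complex I genes, from which that median was formed. All these counts follow from how far a point lies from the bulk of the genes, and are no separate result. The other members were far from AOX1: NDH2 was the nearest of them, at a distance of 1.29.

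The identifiers directly before and after AOX1 did not share its differences. YALI0D09911g had 24.9, 26.5 and 25.8 RPKM for wild type, deletion and overexpression. YALI0D09955g was at 6.57, 6.64 and 8.39 RPKM in that order. With extra MHY1 it was 1.28 times its wild-type level (1.18 to 1.38), where AOX1 was lower. Its log2 ratio in that comparison, 0.31, was reached or exceeded by 35.3% of all genes.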

How the data were processed

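RNA-seq of 3 Yarrowia lipolytica cultures was used, 1 library per strain. Per the labels' protocols, 50 ml cultures were used and 1 µg of total RNA went into an Illumina TruSeq library. Per the file headers, the authors deposited RPKM for 6448 identifiers. The tools TopHat2 2.1.1 and Cufflinks 2.2.1 appear, with no role stated, per the submitters' processing notes, as does the mouse build mm10, from which Yarrowia identifiers cannot come. Yeast build, annotation, strand and treatment of multi-mapping reads are not stated in the labels or headers, so reads shared with similar or overlapping genes cannot be told apart.

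Read totals, gene lengths and whole reads were recovered from the RPKM steps, multiples of 3 bp first (100% of 18983 values above 0 came within 0.01 of a whole read), and the step was checked on simulated data. A recovered length can be a fraction of the true one, which widens counting intervals. Ratio intervals are exact conditional binomial and level intervals exact Poisson, at 95%. An absent transcript was set against 3 reads. Log2 ratios used a pseudocount of 1 RPKM. Compared were 6035 genes that reached 1 RPKM in some library, and 2-fold was the line for a call. Other pseudocounts, filters, folds and scalings were tried as alternatives. Centring and leaving out the pair with unmet lengths were added after seeing the data.

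Of the 6448 identifiers 0 matched the RefSeq table of assembly ASM176148v1, so no other respiratory-chain genes were taken up and no sequence is shown. Genes named are the 9 members, MHY1, the 2 identifiers beside AOX1 and the 2 genes most like it; unannotated genes most like the others are not printed. Members, lists and rules were chosen with earlier results of these data known. Python 3.11.15, numpy 2.4.6, pandas 2.3.3, scipy 1.17.1 and matplotlib 3.10.9 were used.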

Additional observations from a re-analysis of the deposited data

How the results depend on the processing

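Under the 2 other scalings and centring, all 90 log2 ratios of members and complex I medians kept their sign; pseudocounts and other summaries of the 7 subunits could not turn one. Under median of ratios, upper-quartile scaling and centring, AOX1 was at −1.12, −1.07 and −1.12 in overexpression against wild type, which brought 1 member past 2-fold, and at −2.53, −2.49 and −2.52 in overexpression against deletion (−2.27 with a pseudocount of 5). NDH2 was then at 0.45, 0.45 and 0.43 in the deletion, −0.27, −0.22 and −0.26 in overexpression against wild type, and −0.71, −0.67 and −0.70 between the engineered strains. AOX1 in the deletion was at 1.41 under both scalings. Moves under a scaling follow from its factor, and a larger pseudocount shrinks every ratio. At 4-fold 0 members were called in the deletion, and at 1.5-fold 1 was called in overexpression against wild type. Summing the 7 subunits in place of their median gave 0.17, −0.15 and −0.32 in the 3 comparisons. Of all genes, a pseudocount of 5 left 211 at least 2-fold lower in the deletion, 188 higher in overexpression against wild type and 591 higher in overexpression against deletion, and a filter at 10 RPKM left 238 higher in overexpression against wild type. As deposited these counts were 352, 361, 906 and 361. No paired analysis was possible because no strain has a replicate, and none could be left out for the same reason. The wide intervals of NUIM rest on the reads recovered for it, which may be a fraction of the true ones.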
